A study of Mus musculus with 12 samples.

Results

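Type I interferon-stimulated genes were followed through 4 groups of mouse CD8+ T cells. The genes are 44 symbols of a list chosen by name, and all 44 were found among the 55291 symbols of the deposited count table. RNA was sequenced in bulk after ribosomal RNA depletion, in 12 libraries, 3 in each group. In every group the mice were male and wild-type, and the cells were taken out of their spleens and lymph nodes. Rat tail collagen cells were activated for 2 days on plate-bound anti-CD3 with soluble CD28, expanded for 1 day in interleukin 2 and then held for 24 h inside a gel of rat tail collagen at 2 mg/mL. Bovine collagen cells had the same history and spent the last 24 h inside a gel of bovine collagen at 2 mg/mL. Media cells had the same history and spent those 24 h in liquid media, so that RNA of all 3 cultured groups was taken on day 4. Naive cells were lysed fresh on day 0, without activation or culture. The labels do not say whether libraries with the same number share a mouse, and the p-values below measure only the spread between these libraries.

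Interferon-stimulated genes are switched on when type I interferons bind their receptor, which activates the kinases JAK1 and TYK2 and, through them, a complex of transcription factors that includes STAT2 and IRF9. This complex binds a DNA element in the promoters of its target genes, the interferon-stimulated response element. The products sense foreign RNA, block steps of viral growth, tag proteins with the ubiquitin-like ISG15, or feed back on the signal, and T cells also express many of them at a basal level without infection. A subset, above all the guanylate-binding proteins and immunity-related GTPases, also responds to interferon gamma.

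Promoter windows were searched for the core of this element. RefSeq promoter windows, each from 250 bases before to 50 bases after an annotated start (build GRCm38.p6), were found for 30 of the 44 genes. The core was written as GAAANNGAAA and searched on both strands, with overlapping matches counted singly. It stood in a window of 17 of the 30 genes, which is 56.7% (exact 95% interval 37.4 to 74.5%), against 1079 of all 27025 genes with a window, which is 3.99%. A match is a stretch of letters and not a proven binding site, and the list was made of genes known to respond to interferon. The windows of 7 members are shown from 150 bases before the start to the base before it, read 5′ to 3′ on the gene's strand, with each match to GAAANNGAAA, or to its complement on the other strand, in capitals. They were chosen as members of the main families, with one that fell in rat tail collagen and holds no match.
Isg15, chr4:156200819-156200968, minus strand: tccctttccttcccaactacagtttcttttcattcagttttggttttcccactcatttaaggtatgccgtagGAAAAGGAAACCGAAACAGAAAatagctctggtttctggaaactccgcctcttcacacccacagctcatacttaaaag
Ifit1, chr19:34640739-34640888, plus strand: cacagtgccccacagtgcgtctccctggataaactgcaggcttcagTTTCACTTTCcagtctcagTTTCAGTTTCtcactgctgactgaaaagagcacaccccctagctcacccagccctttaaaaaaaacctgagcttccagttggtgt
Ifit3, chr19:34583379-34583528, plus strand: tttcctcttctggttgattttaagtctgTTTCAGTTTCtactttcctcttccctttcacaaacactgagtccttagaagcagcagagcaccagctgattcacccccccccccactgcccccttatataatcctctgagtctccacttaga
Oas1a, chr5:120907526-120907675, minus strand: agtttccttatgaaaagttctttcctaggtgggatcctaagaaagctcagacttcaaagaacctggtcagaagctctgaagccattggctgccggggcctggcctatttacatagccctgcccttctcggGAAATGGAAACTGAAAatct
Gbp3, chr3:142559894-142560043, plus strand: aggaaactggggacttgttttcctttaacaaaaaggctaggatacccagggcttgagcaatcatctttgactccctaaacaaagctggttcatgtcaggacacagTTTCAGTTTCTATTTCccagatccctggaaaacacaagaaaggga
Bst2, chr8:71537473-71537622, minus strand: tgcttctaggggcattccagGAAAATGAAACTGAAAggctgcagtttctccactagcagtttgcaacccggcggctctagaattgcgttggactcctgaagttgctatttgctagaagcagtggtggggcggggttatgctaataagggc
Samd9l, chr6:3399572-3399721, minus strand: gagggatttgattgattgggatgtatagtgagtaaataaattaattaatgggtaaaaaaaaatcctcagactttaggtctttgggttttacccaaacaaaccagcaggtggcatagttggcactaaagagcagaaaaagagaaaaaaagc
Isg15 held 3 overlapping matches in the stretch shown, Ifit1, Oas1a, Gbp3 and Bst2 held 2 each, Ifit3 held 1 and Samd9l held 0.

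Library totals ran from 28483064 to 53138362 counts. A level in CPM is a count scaled to a common library size with TMM factors over the 12 libraries, and a change is a log2 fold change from edgeR, with p-values adjusted over all genes tested. All 7 marker genes of CD8 T cells were at 1 CPM or more in every group, and their summed level was 2007 to 2243 CPM in rat tail collagen, 2677 to 2922 in bovine collagen, 2631 to 2958 in media and 3467 to 4088 in naive cells. The summed level of 11 markers of monocytes, macrophages and dendritic cells was 22.1 to 28.5 CPM in rat tail collagen, 10.5 to 11.3 in bovine collagen, 9.81 to 10.5 in media and 37.9 to 136 in naive cells. Of the 4 that were tested, 3 rose and 1 fell in rat tail collagen against media. Cd68 had 17.6, 15.7 and 23.1 CPM in rat tail collagen, against 4.81, 6.09 and 7.78 in media. Zbtb46 had 4.31, 4.17 and 3.37 CPM in rat tail collagen, against 0.592, 0.692 and 0.492 in media. Cd14 had 1.08, 0.770 and 0.856 CPM in rat tail collagen, against 0.153, 0.0692 and 0.0427 in media, so that these 3 were higher in every rat tail collagen library. Levels of Lyz2 were 0, 0 and 0.0285 CPM for rat tail collagen, 0.134, 0.0231 and 0.0641 for media and 60.3, 28.4 and 16.5 for naive cells, and Csf1r had 0, 0.0335 and 0 CPM in rat tail collagen, against 0.0191, 0 and 0.0214 in media. Fcgr1 had no counts in media. Summed levels of 6 B cell markers were 7.87 to 9.16 CPM in rat tail collagen, 12.1 to 15.1 in bovine collagen, 12.8 to 15.8 in media and 22.8 to 27.9 in naive cells, with Pax5 at 0 in bovine collagen. Most of this was Cd79b in the cultured groups. Of the 3 tested in rat tail collagen against media, 2 fell and 1 rose. The one that rose was Cd79a, with 0.568, 0.737 and 1.43 CPM in rat tail collagen, against 0.401, 0.415 and 0.470 in media. The 3 CD4 T cell markers summed to 59.3 to 70.8 CPM in rat tail collagen, 29.0 to 36.0 in bovine collagen, 25.1 to 37.7 in media and 10.3 to 22.6 in naive cells. Against media, 1 of the 3 rose in rat tail collagen and 2 were not called. Zbtb7b made up most of the sum in the cultured groups. Its levels were 59.2, 53.0 and 49.2 CPM in rat tail collagen, against 33.3, 25.9 and 18.9 in media, without overlap. Cd4 had 2.69, 2.33 and 2.17 CPM in rat tail collagen, against 3.86, 2.74 and 2.01 in media. Foxp3 had 3.59, 4.00 and 19.4 CPM in rat tail collagen, against 0.496, 0.876 and 4.23 in media, so that its groups overlapped. It had 0.530, 0.872 and 4.40 CPM in bovine collagen. The 5 NK cell markers summed to 41.3 to 76.1 CPM in rat tail collagen, 76.1 to 76.6 in bovine collagen, 75.4 to 82.2 in media and 109 to 138 in naive cells. Of the 4 NK cell markers tested in rat tail collagen against media, 1 rose, 1 fell and 2 were not called. Klrb1c rose, with 9.96, 8.09 and 8.05 CPM in rat tail collagen, against 0.477, 0.323 and 0.171 in media. Eomes, which made up most of the sum, fell, with 54.2, 46.8 and 28.3 CPM in rat tail collagen, against 73.3, 69.7 and 77.4 in media. Ncr1 had 0.149, 0.0502 and 0 CPM in rat tail collagen, against 0.0764, 0 and 0.0214 in media. The 5 stromal markers summed to 71.2 to 77.0 CPM in rat tail collagen, against 130.4 to 147 in media, almost all of it from Pecam1. Of the 2 tested 1 fell and 1 rose, Col1a1, with 4.88, 3.83 and 4.14 CPM in rat tail collagen, against 0.286, 0.369 and 0.278 in media. The 5 markers of red cells and platelets summed to 2.99 to 4.37 CPM in rat tail collagen, against 2.79 to 4.20 in media. Of the 3 tested 1 fell, 1 was not called and 1 rose, Alas2, with 0.957, 0.971 and 2.40 CPM in rat tail collagen and no counts in media. Ribosomal RNA genes took 5.03 to 13.2% of counts in rat tail collagen, 5.50 to 11.9% in bovine collagen, 4.45 to 4.72% in media and 3.96 to 5.67% in naive cells. The highest shares were in rat tail collagen 1 and 3 and bovine collagen 2. Malat1, an abundant nuclear RNA, took 1.11 to 1.47% of counts in rat tail collagen, 0.195 to 0.276% in bovine collagen, 0.179 to 0.295% in media and 0.678 to 0.857% in naive cells. With ribosomal RNA genes and Malat1 removed before scaling, no member's call changed except that Stat2 was called higher in rat tail than in bovine collagen. Values without the 3 libraries with the most ribosomal RNA are given below, and the part of the marker genes in the differences was not tested.

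By group mean, 28 of the 44 members were highest in naive cells (38.6% of 20008 genes were), 10 in media (16.7% of genes), 6 in rat tail collagen (32.4%) and 0 in bovine collagen (12.3%). The lowest mean was in rat tail collagen for 26 members (31.4% of genes), in bovine collagen for 8 (16%), in media for 3 (17.4%) and in naive cells for 7 (35.2%). Both highest in naive cells and lowest in rat tail collagen were 20 members (45.5%), against 20.3% of genes. Their summed level was 2168.5 ± 36.5 CPM in rat tail collagen, 2629.6 ± 77.9 in bovine collagen, 3064.9 ± 359 in media and 3034.7 ± 201 in naive cells (SD, n = 3 each). The rat tail collagen libraries lay below all others, the bovine collagen libraries lay between them and the media libraries, and media and naive libraries overlapped. In bulk RNA, fewer cells of a type and less RNA per cell cannot be told apart. The group means of Mx2, Ifitm3 and Ifi44 stayed under 5 CPM in every group, and those of Ifi44 under 1 CPM.

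**Figure D1:**
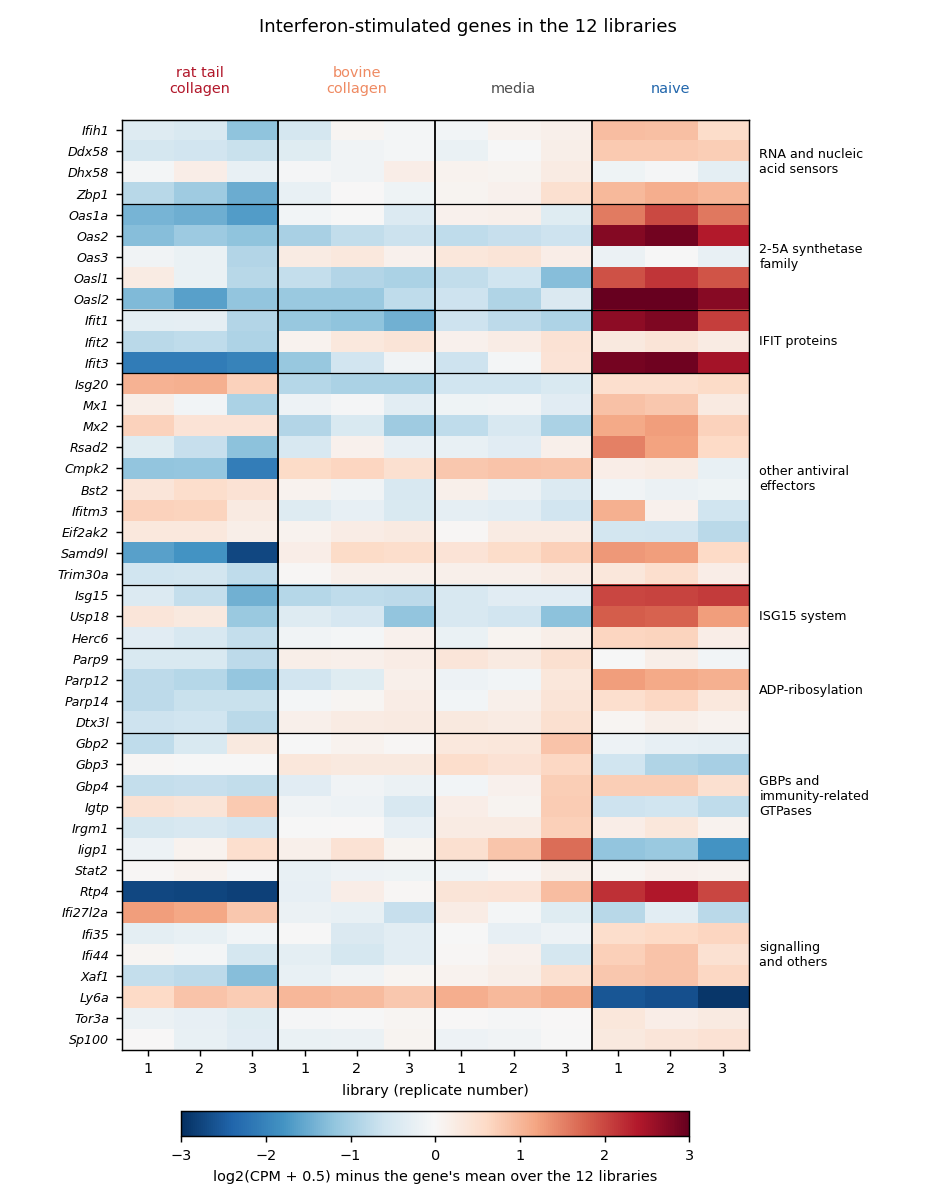
Level of each of the 44 genes in each of the 12 libraries, as log2(CPM + 0.5) minus the gene's mean over the libraries, with colours ending at -3 and 3. Rows are grouped by function and columns by group. The naive columns are the reddest for most rows, and 26 of the 44 rows have their lowest group mean in rat tail collagen.

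Per kilobase of exon, the order of the genes differed between groups. In rat tail collagen the highest levels were those of Ifi27l2a, which encodes a small interferon-inducible protein, at 206 CPM per kb, Igtp, an immunity-related GTPase, at 154 and Ly6a, the surface protein Sca-1, at 153. In media they were those of Ly6a at 188 CPM per kb, Igtp at 136 and Ifi27l2a at 93.3. In naive cells they were those of Sp100, a protein of nuclear bodies, at 72.9 CPM per kb, Igtp at 66.2 and Ifi27l2a at 62.0. These 3 lists share Igtp and Ifi27l2a, and Ly6a is in both day 4 lists and not in that of naive cells.

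The first comparison, rat tail collagen with media, asked what a day inside that gel goes with. Most members fell: of the 43 tested, 27 were lower and 6 were higher in rat tail collagen (62.8% and 14%), while 28.7% of all 19392 genes tested were lower and 29.7% were higher. The members' median log2 change was -0.67, against -0.01 over all genes. At least 2-fold, 12 members fell and 5 rose, against 6.88% and 16% of all genes. All 3 rat tail collagen libraries lay below all 3 media libraries for 26 members and above them for 5, against 31.3% and 33.5% of all genes. Ifi44 was not tested because its counts were under the filter. Leaving out the 3 libraries with the most ribosomal RNA leaves 1 rat tail collagen library, which is taken to vary like the other groups. The members' median log2 change was then -0.55.

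**Figure D2:**
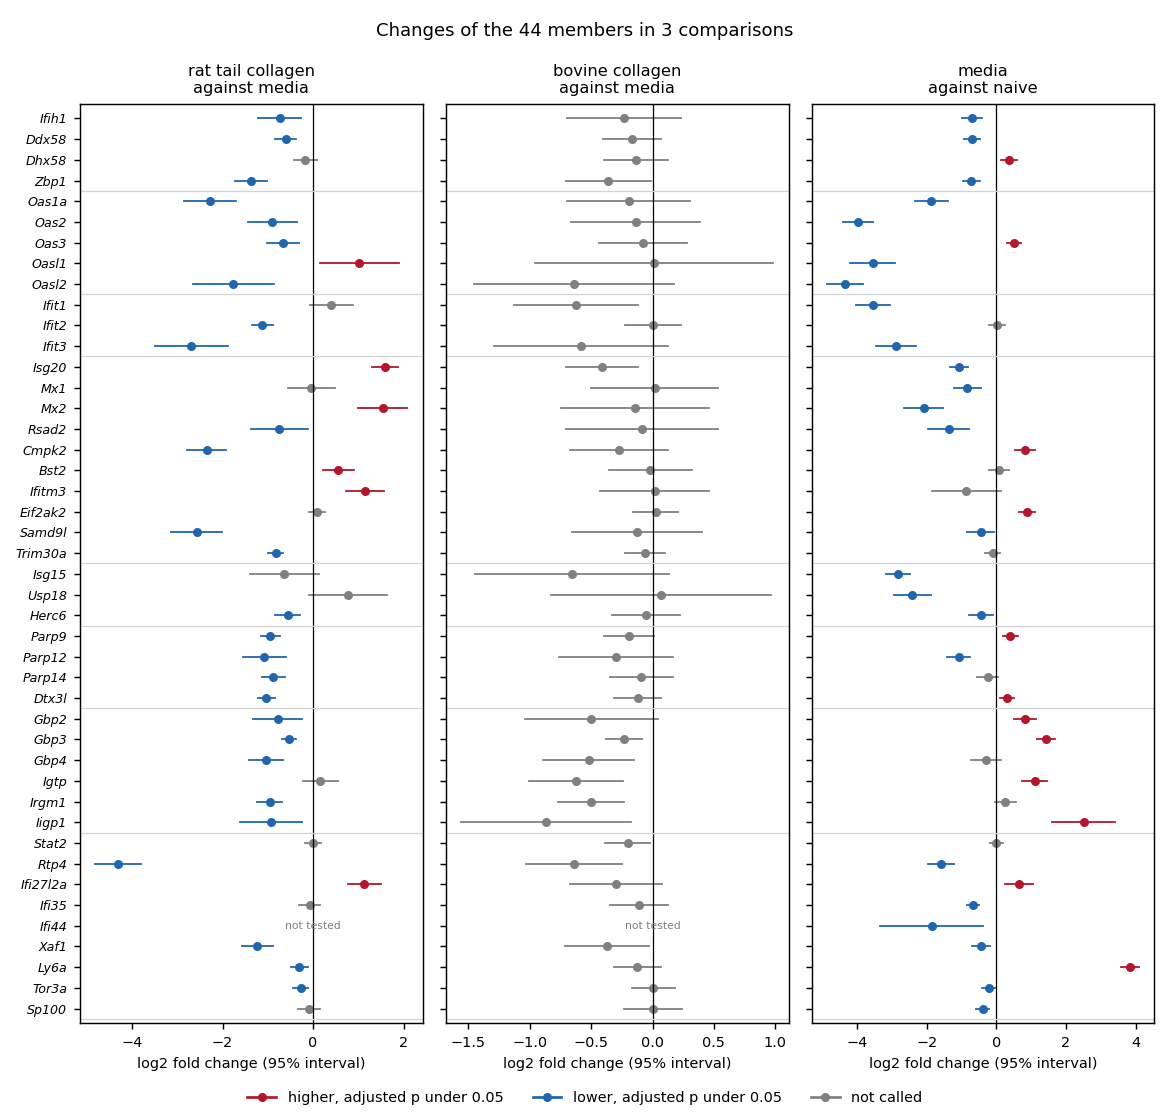
Log2 fold change of each member with its 95% interval against media for rat tail and bovine collagen, and against naive cells for media, with scales that differ between panels. Red marks members that were higher and blue those that were lower at an adjusted p under 0.05. Blue dominates the first panel (27 members, against 6 in red), and the second holds grey points only.

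The largest fall was that of Rtp4, a receptor transporter protein gene (chromosome 16, 23520291 to 23614222, plus strand, GRCm38). It had 0.508, 0.486 and 0.457 CPM in rat tail collagen, 5.07, 7.10 and 6.29 in bovine collagen, 8.23, 8.32 and 12.2 in media and 29.9, 34.5 and 26.2 in naive cells. The 4 groups did not overlap. Rtp4 was 19.8-fold lower in rat tail collagen than in media (log2 -4.31 ± 0.229, SE, adjusted p = 6.2e-08). A predicted gene on the same strand, Gm45338, overlaps 13.9% of its exon length, so that part of its reads could have been left out or split in counting.

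The sensors of foreign nucleic acid fell in 3 of 4 cases. Zbp1 binds left-handed nucleic acid and can start cell death, and its gene (chromosome 2, 173206612 to 173218923, minus strand) had 24.8, 21.3 and 15.5 CPM in rat tail collagen, 38.6, 44.9 and 40.7 in bovine collagen, 47.2, 48.9 and 63.0 in media and 89.0, 95.4 and 89.9 in naive cells. No library of one group reached into another. It fell by log2 -1.38 ± 0.161 in rat tail collagen against media (adjusted p = 2.2e-05). Ifih1 and Ddx58, which encode the RNA sensors MDA5 and RIG-I, fell by less. Ifih1 had 7.70 ± 2.33 CPM in rat tail collagen, against 12.8 ± 1.14 in media (log2 -0.74, adjusted p = 0.0113), and without the 3 libraries with the most ribosomal RNA its log2 change was -0.54 (adjusted p = 0.102). Ddx58 had 58.1 ± 2.70 CPM in rat tail collagen, against 87.9 ± 11.3 in media (log2 -0.61, adjusted p = 0.000559). Dhx58, the gene of the related helicase LGP2, had a log2 change of -0.17 (95% interval -0.43 to 0.09) and was not called.

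Of the oligoadenylate synthetase family, whose enzymes make the messenger that activates RNase L, 4 of 5 genes fell and 1 rose. Oas1a (chromosome 5, 120896256 to 120907521, minus strand) had 0.440 ± 0.0866 CPM in rat tail collagen, against 2.16 ± 0.502 in media (log2 -2.29 ± 0.262, adjusted p = 1.89e-05). Of its 50-base stretches 57.6% also occur in other genes, above all Oas1g and Oas1b, so its level is uncertain. Oasl2 fell by log2 -1.77, Oas2 by -0.90 and Oas3 by -0.67, the last at a level of 53.5 ± 14.6 CPM in rat tail collagen, against 84.6 ± 5.38 in media. Oasl1, an oligoadenylate synthetase-like gene, rose to 1.79, 1.21 and 0.600 CPM in rat tail collagen, against 0.668, 0.784 and 0.299 CPM in media (log2 1.03, adjusted p = 0.0448). Its groups overlapped, and its call was lost without any one of rat tail collagen 1, rat tail collagen 2, bovine collagen 2, media 1 and media 3 (adjusted p from 0.0613 to 0.193). It was also lost with limma-voom and in a fit of the 6 libraries alone (adjusted p 0.0584 and 0.0616). Without the 3 libraries with the most ribosomal RNA, the log2 change was -0.70 for Oas2 (adjusted p = 0.203) and 1.04 for Oasl1 (adjusted p = 0.139).

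The IFIT proteins bind viral RNA and hold back its translation, and their 3 genes lie close together on chromosome 19. They did not move as one. Ifit3 (chromosome 19, 34583531 to 34588731, plus strand) had 0.628, 0.636 and 0.714 CPM in rat tail collagen, 1.70, 2.74 and 4.02 in bovine collagen, 2.63, 4.13 and 5.94 in media and 34.6, 36.3 and 26.8 in naive cells. The rat tail collagen libraries were the lowest and the naive libraries the highest, and bovine collagen and media overlapped. Ifit3 was 6.46-fold lower in rat tail collagen than in media (log2 -2.69 ± 0.368, adjusted p = 7.49e-05). It shares 51.2% of its 50-base stretches with Ifit3b, which fell by log2 -2.98, so the split between these copies is uncertain.

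Ifit2 (chromosome 19, 34550694 to 34576419, plus strand) had 20.8, 21.6 and 19.1 CPM in rat tail collagen, 39.8, 46.0 and 48.1 in bovine collagen, 40.2, 43.0 and 50.4 in media and 45.2, 48.8 and 43.8 in naive cells. Only the rat tail collagen libraries stood apart, below the other 3 groups, which overlapped. Ifit2 fell by log2 -1.13 ± 0.106 against media (adjusted p = 4e-06). Ifit1 (chromosome 19, 34640871 to 34650009, plus strand) had 3.17, 3.21 and 1.94 CPM in rat tail collagen, 1.53, 1.43 and 1.15 in bovine collagen, 2.39, 2.08 and 1.84 in media and 28.1, 30.3 and 18.4 in naive cells. Rat tail collagen and media overlapped in Ifit1 (log2 0.40 ± 0.216, adjusted p = 0.133). Without rat tail collagen 3 the log2 change of Ifit1 was 0.60 with an adjusted p of 0.0208.

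The other antiviral effectors were divided, with 4 of 10 genes lower and 4 higher in rat tail collagen. Samd9l, which encodes a large cytosolic restriction factor (chromosome 6, 3372257 to 3399572, minus strand), had 40.4, 35.9 and 18.4 CPM in rat tail collagen, 144, 188 and 183 in bovine collagen, 168, 186 and 209 in media and 311, 302 and 192 in naive cells. Rat tail collagen lay far below the rest, and the other 3 groups overlapped in part. Samd9l was 5.96-fold lower than in media (log2 -2.58 ± 0.253, adjusted p = 1.39e-05). Cmpk2, the gene of a mitochondrial nucleotide kinase (chromosome 12, 26469204 to 26479837, plus strand), had 5.62, 5.74 and 2.80 CPM in rat tail collagen, 20.3, 21.1 and 18.8 in bovine collagen, 23.7, 24.6 and 24.3 in media and 15.4, 16.0 and 11.5 in naive cells. The groups did not overlap in Cmpk2, and media was the highest. It was 5.10-fold lower in rat tail collagen than in media (log2 -2.35 ± 0.199, adjusted p = 1.8e-06). Its neighbour Rsad2, which encodes viperin, had 1.54 ± 0.577 CPM in rat tail collagen, against 2.58 ± 0.572 in media (log2 -0.75, adjusted p = 0.0421), a call that was lost without any one of rat tail collagen 2, rat tail collagen 3 and media 3 (adjusted p from 0.0917 to 0.143). The call of Rsad2 was also lost with a filter of 1 CPM, with all 12 libraries in a fit, with offsets for GC content and length and without the 3 libraries with the most ribosomal RNA (log2 -0.74 to -0.67, adjusted p from 0.0531 to 0.141). Trim30a, of the TRIM family, fell by log2 -0.83 ± 0.0756 (adjusted p = 3.22e-06).

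Isg20, which encodes an exonuclease that degrades RNA (chromosome 7, 78913424 to 78920396, plus strand), went the other way. It had 14.5, 14.8 and 11.3 CPM in rat tail collagen, 3.51, 3.29 and 3.28 in bovine collagen, 4.31, 4.34 and 4.77 in media and 9.76, 9.78 and 10.2 in naive cells. The groups did not overlap, and rat tail collagen was the highest. Isg20 was 3.02-fold higher than in media (log2 1.59 ± 0.128, adjusted p = 1.23e-06). Mx2 rose by log2 1.54 ± 0.247 to 3.20 ± 0.437 CPM in rat tail collagen, against 1.10 ± 0.267 in media (adjusted p = 0.000254). Its annotation type is polymorphic pseudogene. Ifitm3, which encodes a membrane protein that blocks virus entry, rose by log2 1.14 ± 0.189 to 3.44 ± 0.602 CPM, against 1.55 ± 0.230 in media (adjusted p = 0.00031).

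Bst2 encodes tetherin, which holds budding viruses at the cell surface (chromosome 8, 71534255 to 71537456, minus strand). It had 41.1, 45.7 and 42.9 CPM in rat tail collagen, 34.1, 29.5 and 22.8 in bovine collagen, 35.4, 28.2 and 23.9 in media and 29.8, 28.0 and 29.2 in naive cells. The rat tail collagen libraries stood above all others, which overlapped. Bst2 rose by log2 0.56 ± 0.152 against media (adjusted p = 0.0079), with a log2 change of 0.65 without the 3 libraries with the most ribosomal RNA, which was not called with 1 rat tail collagen library left (adjusted p = 0.0894). Bst2 also marks plasmacytoid dendritic cells. The summed level of 6 other markers of these cells was 180.6 to 202 CPM in rat tail collagen, 41.7 to 49.3 in bovine collagen, 55.4 to 63.7 in media and 140.0 to 164 in naive cells, and 3 of the 6 were at 1 CPM or more in each group. Those 3, Irf8, Ccr9 and Tcf4, were all higher in rat tail collagen against media. Ccr9 had 13.3, 19.1 and 19.8 CPM in rat tail collagen, against 3.67, 3.46 and 7.07 in media, and Tcf4 had 12.4, 12.5 and 13.1 CPM in rat tail collagen, against 5.75, 7.29 and 5.96 in media. Their defining marker Siglech had 0.0598, 0.0167 and 0 CPM in rat tail collagen and no counts in bovine collagen or media, Klk1 had no counts in these 3 groups, and Irf8, which T cells can express, made up 173, 170.2 and 148 CPM of the sum in rat tail collagen and 45.8, 44.9 and 50.5 CPM in media. The part of these cells in the level of Bst2 was not tested.

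Mx1 and Eif2ak2 were not called. Mx1, a dynamin-like GTPase that blocks viruses (chromosome 16, 97447035 to 97462907, minus strand), had 10.6, 8.84 and 4.60 CPM in rat tail collagen, 8.42, 9.16 and 7.41 in bovine collagen, 8.49, 8.76 and 7.37 in media and 17.7, 16.7 and 11.5 in naive cells. The 3 day 4 groups overlapped, and rat tail collagen had the widest spread (log2 change against media -0.04, 95% interval -0.56 to 0.48, adjusted p = 0.897). Eif2ak2, the gene of the RNA-activated kinase PKR, had a log2 change of 0.09 (95% interval -0.10 to 0.27).

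In the ISG15 system 1 of 3 genes fell. Isg15 itself (chromosome 4, 156199424 to 156200818, minus strand) had 1.05, 0.753 and 0.257 CPM in rat tail collagen, 0.641, 0.714 and 0.687 in bovine collagen, 0.974, 1.13 and 1.11 in media and 7.69, 7.95 and 8.31 in naive cells. The day 4 values rest on 9 to 52 counts a library, and rat tail collagen overlapped both other day 4 groups. The log2 change of Isg15 against media was -0.64 ± 0.347 (adjusted p = 0.134), and -0.99 without rat tail collagen 1 (adjusted p = 0.0396). Usp18, whose enzyme removes ISG15 from proteins and damps the interferon receptor (chromosome 6, 121245906 to 121270917, plus strand), had 9.33, 9.01 and 3.08 CPM in rat tail collagen, 5.38, 4.92 and 2.88 in bovine collagen, 5.02, 4.68 and 2.78 in media and 26.4, 25.6 and 17.9 in naive cells. Library 3 was the lowest in each of the 4 groups. The log2 change of Usp18 in rat tail collagen against media was 0.78 ± 0.391 (adjusted p = 0.112), and 1.14 without rat tail collagen 3 (adjusted p = 0.00613). With the replicate number as a block Usp18 was called, with a log2 change of 0.70 (adjusted p = 0.00355), though the labels do not say that equal numbers pair the libraries. Herc6, the gene of the mouse ligase for ISG15, fell by log2 -0.56 ± 0.127 (adjusted p = 0.00276, and log2 -0.52 with an adjusted p of 0.0748 without the 3 libraries with the most ribosomal RNA).

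All 4 genes of ADP-ribosylation fell in rat tail collagen. Parp12, which encodes a mono-ADP-ribosyltransferase (chromosome 6, 39086410 to 39118349, minus strand), had 4.31, 4.02 and 3.17 CPM in rat tail collagen, 5.05, 5.95 and 8.65 in bovine collagen, 6.97, 7.26 and 9.96 in media and 19.0, 17.7 and 16.9 in naive cells. Rat tail collagen was the lowest, naive cells were the highest, and bovine collagen and media overlapped. Parp12 fell by log2 -1.08 ± 0.216 against media (adjusted p = 0.00118, and log2 -1.01 with an adjusted p of 0.0646 without the 3 libraries with the most ribosomal RNA). Dtx3l, a ubiquitin ligase gene (chromosome 16, 35926511 to 35939151, minus strand), had 141, 143 and 125 CPM in rat tail collagen, 243, 259 and 262 in bovine collagen, 265, 259.5 and 305 in media and 226, 246 and 233 in naive cells. Rat tail collagen lay below the other groups, and bovine collagen reached into the range of both others. Dtx3l fell by log2 -1.03 ± 0.0876 against media (adjusted p = 1.88e-06). Parp9, the gene of its partner protein, fell by log2 -0.94 ± 0.0944, and Parp14 fell by -0.88 ± 0.117. Parp9 and Dtx3l overlap on opposite strands over 9.4% and 8% of their exon lengths, and whether counting used the strand is not given in the sources used here.

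**Figure D3:**
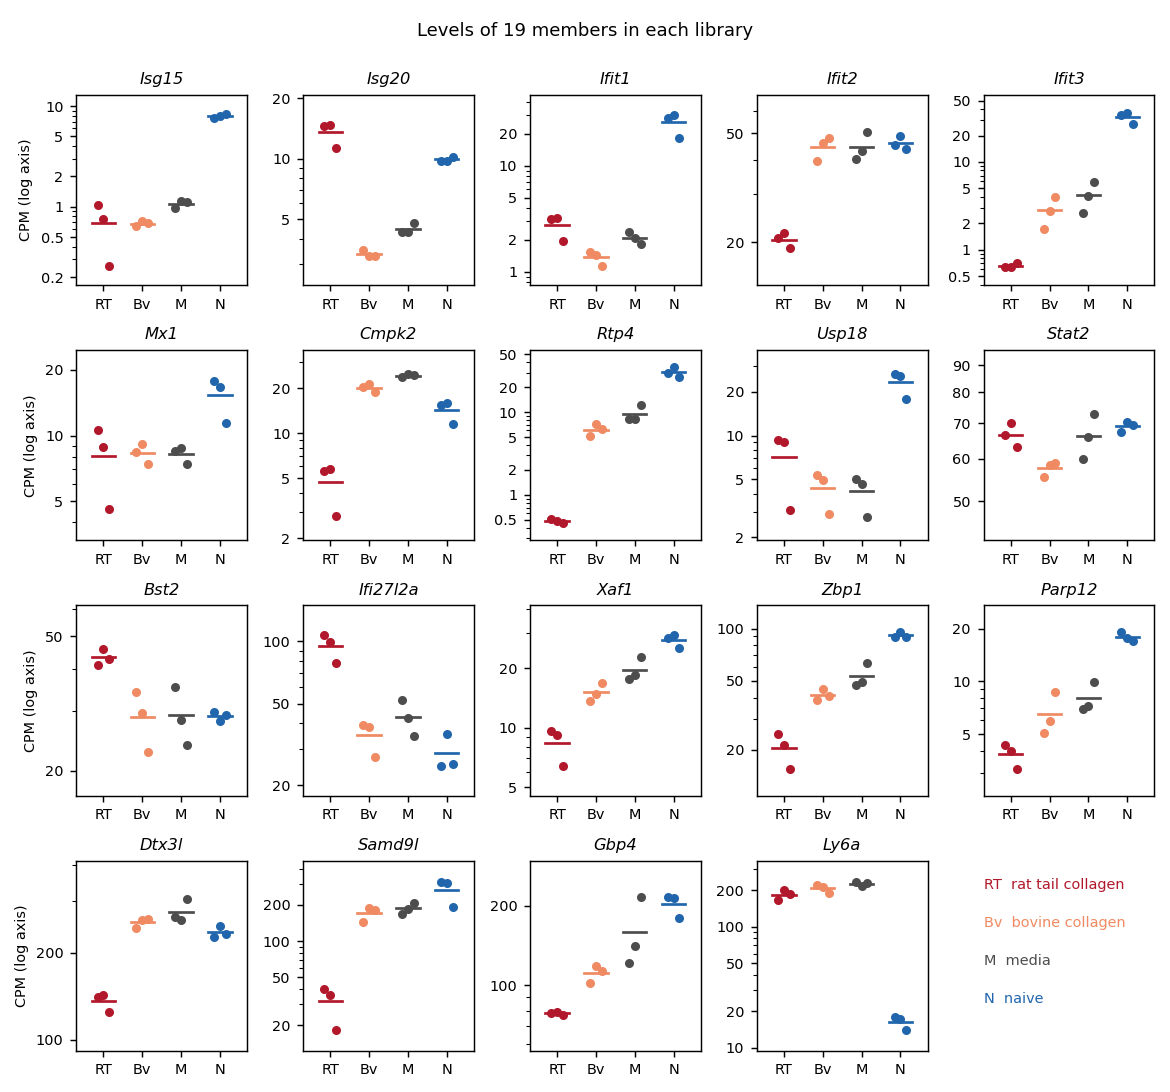
CPM of 19 members in each library on log axes, with a line at each group's mean, for rat tail collagen (RT), bovine collagen (Bv), media (M) and naive cells (N). Rtp4, Ifit3, Samd9l and Cmpk2 are lowest in rat tail collagen, Isg20, Bst2 and Ifi27l2a are highest there, and Ly6a is low in naive cells alone.

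Of the guanylate-binding proteins and immunity-related GTPases, which attack the vacuoles of intracellular pathogens, 5 of 6 genes fell in rat tail collagen against media. Gbp4 (chromosome 5, 105115767 to 105139586, minus strand) had 78.7, 79.4 and 77.3 CPM in rat tail collagen, 102, 119 and 114 in bovine collagen, 121, 141 and 216 in media and 216, 215 and 180.2 in naive cells. Rat tail collagen was the lowest, bovine collagen lay next, and media and naive cells overlapped. Gbp4 fell by log2 -1.03 ± 0.171 against media (adjusted p = 0.000315), with 12.8% of its 50-base stretches shared with related genes. Irgm1 fell by -0.96 ± 0.124 and Gbp3 by -0.53 ± 0.0678 on the log2 scale. Gbp2 fell by log2 -0.79 ± 0.243 (adjusted p = 0.0185), a call that was lost without rat tail collagen 2 (adjusted p = 0.0601) or media 3 (adjusted p = 0.0775), and also with the looser filter, in a fit of the 6 libraries alone and with offsets for GC content and length (adjusted p from 0.0652 to 0.0805). Iigp1 fell by log2 -0.92 ± 0.301 (adjusted p = 0.0271), and its adjusted p was 0.0535 to 0.0743 without any one of rat tail collagen 1, rat tail collagen 2, bovine collagen 1 and bovine collagen 3. The call of Iigp1 was also lost with library totals, with the looser filter, in a fit of the 6 libraries alone, with offsets for GC content and length and without the 3 libraries with the most ribosomal RNA (log2 -0.73 or lower, adjusted p from 0.0547 to 0.107). Igtp had a log2 change of 0.16 ± 0.175 and was not called, and without media 3 it was 0.39 (adjusted p = 0.0314).

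Of the remaining members, Ifi27l2a (chromosome 12, 103442167 to 103443680, minus strand) had 107, 99.7 and 79.0 CPM in rat tail collagen, 39.5, 38.5 and 27.6 in bovine collagen, 52.1, 42.6 and 34.8 in media and 25.0, 35.7 and 25.4 in naive cells. Rat tail collagen stood above the other groups, which overlapped. Ifi27l2a rose by log2 1.13 ± 0.169 against media (adjusted p = 0.000145). Xaf1, which encodes a partner of the apoptosis inhibitor XIAP (chromosome 11, 72301629 to 72313733, plus strand), had 9.63, 9.16 and 6.37 CPM in rat tail collagen, 13.7, 14.9 and 16.9 in bovine collagen, 17.5, 18.4 and 22.8 in media and 28.4, 29.6 and 25.2 in naive cells. Its 4 groups followed each other without overlap, with rat tail collagen the lowest. Xaf1 fell by log2 -1.23 ± 0.159 against media (adjusted p = 4.88e-05).

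Stat2, a subunit of the interferon-activated complex (chromosome 10, 128270559 to 128292849, plus strand), had 66.5, 70.0 and 63.1 CPM in rat tail collagen, 55.6, 58.5 and 58.8 in bovine collagen, 59.9, 66.0 and 72.9 in media and 67.5, 70.5 and 69.5 in naive cells. Bovine collagen lay below the other 3 groups, which overlapped. The log2 change of Stat2 in rat tail collagen against media was close to 0 (95% interval -0.19 to 0.18, adjusted p = 0.981). Ly6a (chromosome 15, 74994877 to 74998031, minus strand) had 166, 200.3 and 188 CPM in rat tail collagen, 219.7, 213 and 191 in bovine collagen, 235, 216 and 228 in media and 18.1, 17.2 and 14.1 in naive cells. The rat tail collagen libraries lay below those of media and overlapped those of bovine collagen, and naive cells were far lower than all of these. Ly6a was lower by log2 -0.30 ± 0.0862 in rat tail collagen than in media (adjusted p = 0.0101), a difference that was 0.01 (adjusted p = 0.9) with offsets for GC content and length and -0.23 without rat tail collagen 1 (adjusted p = 0.0534). The call of Ly6a was also lost with library totals (log2 -0.25, adjusted p = 0.0916) and without the 3 libraries with the most ribosomal RNA (log2 -0.18, adjusted p = 0.317). Tor3a, of the torsin family, fell by log2 -0.28 ± 0.0783 (adjusted p = 0.0101), a call that was lost with library totals (log2 -0.22, adjusted p = 0.133) and without the 3 libraries with the most ribosomal RNA (log2 -0.26, adjusted p = 0.144). Sp100 had a log2 change of -0.09 and Ifi35 one of -0.07, and neither was called.

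Bovine collagen was compared with media as the second gel, at the same concentration and time. No member was called: 0 of 43 were higher or lower with edgeR's quasi-likelihood test or with limma-voom, and 0 of the 42 with an adjusted p in DESeq2. With edgeR 4 of all 19392 genes tested were called, which is 0.0206%. At an unadjusted p under 0.05 there were 11 members (25.6%), against 4.18% of all genes tested. The members' median log2 change was -0.17, against -0.01 over all genes. All 3 bovine collagen libraries lay below all 3 media libraries for 15 members (34.9%) and above them for 0, against 4.12% and 4.66% of all genes. The 15 were Isg15, Isg20, Ifit1, Cmpk2, Rtp4, Stat2, Xaf1, Zbp1, Parp9 and all 6 of the GTPase genes. The rat tail and bovine collagen comparisons share the media libraries, so values that are low in both against media are not independent of each other.

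The lowest unadjusted p among the members in this comparison was that of Irgm1, and 5 of the 6 GTPase genes had one under 0.05. Irgm1, Igtp and Iigp1 are given in full here, a choice made after their values were seen. Irgm1 had 71.8, 75.0 and 70.1 CPM in rat tail collagen, 103, 105 and 88.0 in bovine collagen, 124, 124 and 171 in media and 121, 132 and 113 in naive cells. Its log2 change in bovine collagen against media was -0.50 ± 0.123 (95% interval -0.77 to -0.23, unadjusted p of edgeR's quasi-likelihood test = 0.00172, adjusted p = 1). It was the only member called with a looser filter, that of 1 count in all. Igtp had 288, 276 and 366 CPM in rat tail collagen, 197, 189 and 151 in bovine collagen, 244, 224 and 359 in media and 138, 139.5 and 124 in naive cells. Bovine collagen lay below media in Igtp, while rat tail collagen overlapped media (bovine collagen against media log2 -0.62 ± 0.176, adjusted p = 1). Iigp1 had 38.3, 46.0 and 61.5 CPM in rat tail collagen, 47.7, 57.8 and 45.2 in bovine collagen, 60.5, 76.7 and 137 in media and 18.6, 19.7 and 12.1 in naive cells. The highest media value was again that of library 3. The log2 change of Iigp1 in bovine collagen against media was -0.87 ± 0.302, and -0.45 without media 3. For Gbp4 it was -0.52 ± 0.170, and -0.24 without media 3, and for Gbp2 it was -0.50 ± 0.242, and -0.30 without media 3.

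**Figure D4:**
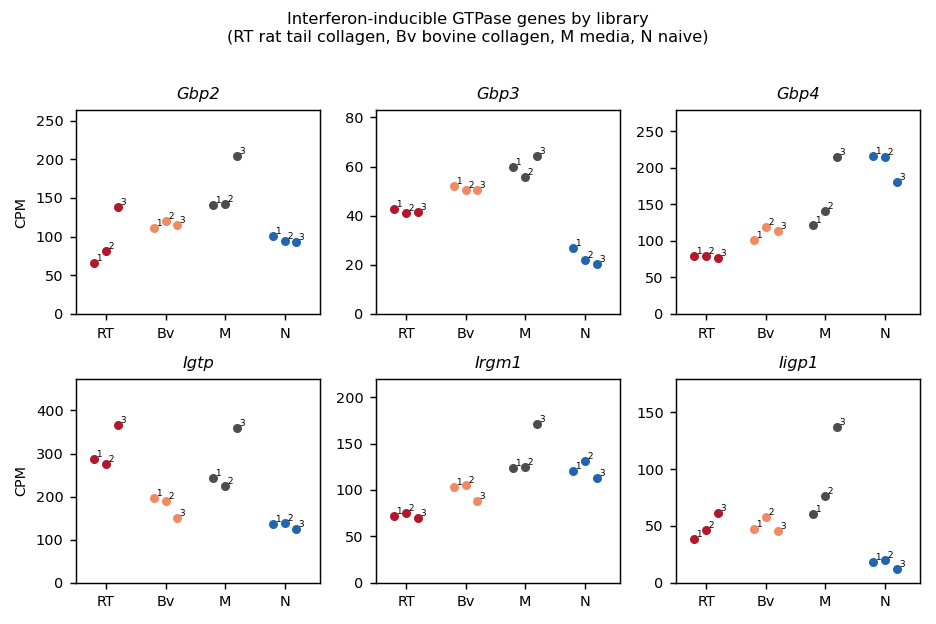
CPM of 6 GTPase genes in each library on linear axes from 0, with the library number beside each point (RT rat tail collagen, Bv bovine collagen, M media, N naive). All 3 bovine collagen points lie below all 3 media points for each GTPase gene, and media 3 is the highest media point in every panel.

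Rat tail collagen was also compared with bovine collagen, which tests the difference between the gels themselves. Of 43 members tested, 21 were lower and 7 were higher in rat tail collagen (48.8% and 16.3%), against 26.4% and 28.4% of all genes tested. The median log2 change of the members was -0.44, against 0.00 over all genes. All 3 rat tail collagen libraries lay below all 3 bovine collagen libraries for 22 members and above them for 8, against 31% and 32.8% of all genes. With library totals in place of TMM factors, 14 members were lower and 9 higher. In that setting 9550 of all 19392 genes tested were called in either direction, against 10617 with TMM factors. The shares of all genes given above belong to the fit with TMM factors. Library totals gave a median log2 change of -0.29 for the members and moved that of all genes by 0.144. Without the 3 libraries with the most ribosomal RNA, the members' median was -0.33.

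The largest falls against bovine collagen were those of Rtp4, Samd9l, Ifit3, Oas1a and Cmpk2. This comparison and that with media share the rat tail collagen libraries. Rtp4 was 12.7-fold lower in rat tail than in bovine collagen (log2 -3.66 ± 0.232, adjusted p = 2.53e-07), Samd9l was 5.45-fold lower (adjusted p = 2.24e-05) and Cmpk2 was 4.22-fold lower (adjusted p = 5.64e-06). The 7 that were higher were Isg20 (log2 2.00), Mx2 (1.68), Ifi27l2a (1.43), Ifitm3 (1.13), Ifit1 (1.02), Igtp (0.78) and Bst2 (0.58). Ifit1 and Igtp were not called against media. The fall of Gbp4 (log2 -0.51, adjusted p = 0.0241) was lost without any one of rat tail collagen 1, 2 and 3 and bovine collagen 2 and 3 (adjusted p from 0.0582 to 0.0735). The fall of Oas2 (log2 -0.77, adjusted p = 0.0265) was lost without any one of rat tail collagen 1 and 3 and bovine collagen 2 and 3 (adjusted p from 0.0628 to 0.11). Both Gbp4 and Oas2 also lost their calls with library totals and with the looser filter, and Oas2 lost its call with DESeq2.

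**Figure D5:**
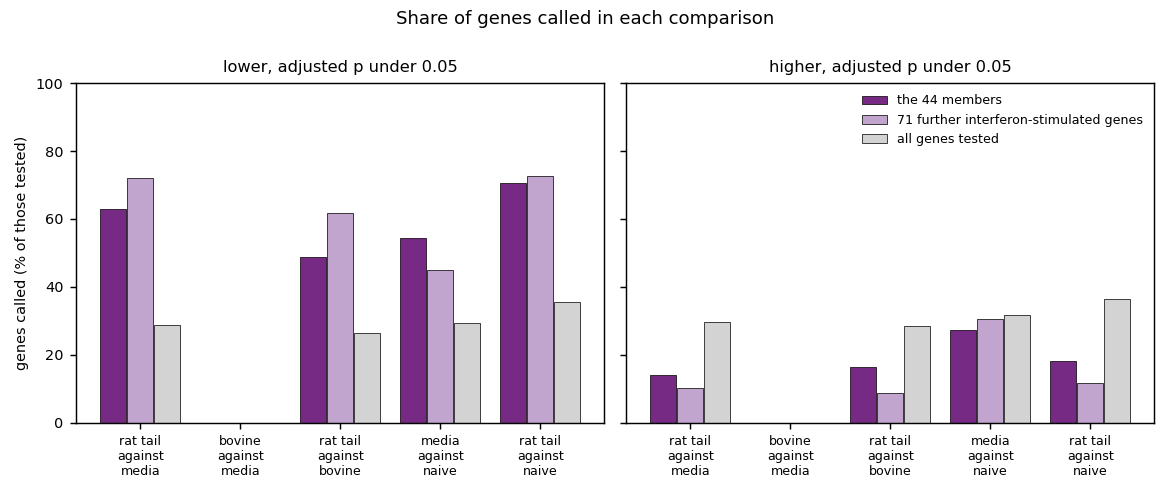
Share of genes that were lower (left) and higher (right) at an adjusted p under 0.05 in 5 comparisons, for the 44 members, for 71 further interferon-stimulated genes and for all genes tested. In rat tail collagen against media the shares of lower genes were 62.8%, 72.1% and 28.7%.

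Media was compared with naive cells to set the gel effects beside those of activation and culture. Of 44 members tested, 24 fell and 12 rose in media (54.5% and 27.3%), against 29.2% and 31.6% of all 18610 genes tested. The median log2 change was -0.44, against a median close to 0 over all genes. At least 2-fold, 14 members fell and 4 rose, against 11.9% and 15.2% of all genes. All 3 media libraries lay below all 3 naive libraries for 23 members and above them for 11, against 35.6% and 32.1% of all genes.

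The largest falls were those of antiviral genes. Oasl2 was 20.3-fold lower in media than in naive cells (log2 -4.35 ± 0.230, adjusted p = 4.84e-07), Oas2 was 15.8-fold lower, Oasl1 11.8-fold, Ifit1 11.7-fold, Ifit3 7.40-fold, Isg15 7.13-fold and Usp18 5.36-fold. Of the antiviral families, 4 of 5 oligoadenylate synthetase genes, 2 of 3 Ifit genes, 3 of 3 genes of the ISG15 system and 3 of 4 sensor genes fell. Oas3 and Dhx58 rose instead, by log2 0.51 and 0.37. Ly6a rose most, to 226 ± 9.84 CPM in media, against 16.5 ± 2.07 in naive cells (14.4-fold, log2 3.84 ± 0.111, adjusted p = 8.41e-09). Of the GTPase genes 4 of 6 rose in media, and Gbp4 and Irgm1 were not called (log2 -0.29 and 0.26). Iigp1 was 5.69-fold higher, Gbp3 2.70-fold, Igtp 2.15-fold and Gbp2 1.76-fold.

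Some of these calls were lost with 1 library left out or under other settings. The fall of Samd9l (log2 -0.46, adjusted p = 0.0479) was lost without any one of media 1, 2 and 3 and naive 1 and 2 (adjusted p from 0.0651 to 0.215). The fall of Herc6 was lost without any one of media 1 and 2 and naive 1 and 2 (0.0597 to 0.0978), and that of Tor3a without any one of media 2 and 3 and naive 1 (0.074 to 0.123). The fall of Ifi44 was lost without media 1 or naive 2 (adjusted p 0.0661 and 0.0877). The rise of Dtx3l was lost without naive 1 or naive 3 (adjusted p 0.0859 and 0.0543), and that of Ifi27l2a without media 1 (0.0559). Gbp4 and Parp14 were called lower without media 3 (adjusted p 0.00337 and 0.0264), and Ifitm3 without naive 3 (0.0136). With the replicate number as a block, Samd9l, Herc6 and Tor3a lost their calls. Samd9l also lost its call with limma-voom, without robust estimation and with all 12 libraries in a fit, and Tor3a with the looser filter and with offsets for GC content and length. Parp14 and Ifitm3 gained a call with all 12 libraries and, like Irgm1, with the looser filter, and Trim30a with the offsets.

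Naive cells were also the baseline for rat tail collagen. Against naive cells, 31 of 44 members were lower and 8 higher in rat tail collagen (70.5% and 18.2%), against 35.4% and 36.5% of all 19449 genes tested, and the median log2 change was -1.02, against a median close to 0 over all genes. Oasl2 was 72.8-fold lower, Rtp4 61.8-fold and Ifit3 49.2-fold. The 8 that were higher were Ly6a (log2 3.49), Ifi27l2a (1.73), Iigp1 (1.54), Igtp (1.22), Eif2ak2 (0.93), Gbp3 (0.86), Bst2 (0.58) and Isg20 (0.46). The fall of Mx1 (adjusted p = 0.0348) was lost without any one of rat tail collagen 2, naive 1 and naive 2 (0.0661 to 0.0945), that of Mx2 without rat tail collagen 2 or naive 2 (0.0789 and 0.0621), and that of Usp18 without naive 1 (0.0538). Gbp2 was called lower without rat tail collagen 3 (0.00528) and Ifitm3 higher without naive 1 (0.015). Naive 1 also had the highest summed level of monocyte, macrophage and dendritic cell markers, with 42.6, 8.13 and 8.46 CPM of Csf1r in naive 1, 2 and 3, and 5.12, 2.44 and 1.28 CPM of Ifitm3, whose part in this was not tested.

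Set side by side, the comparisons of rat tail collagen with media and of media with naive cells, which share the media libraries, sorted the 43 members tested in both as follows, beside 18043 genes tested in both. Lower in both were 14 members, against 6.85% of genes: Ifit3, Ifih1, Ddx58, Oas1a, Oas2, Oasl2, Rsad2, Rtp4, Xaf1, Zbp1, Parp12, Herc6, Samd9l and Tor3a. Calls of Rsad2, Herc6, Samd9l and Tor3a, among others of these, were lost under some alternatives given above. Higher in media than in naive cells and lower in rat tail collagen than in media were 8, against 13.7% of genes: Oas3, Cmpk2, Parp9, Dtx3l, Gbp2, Gbp3, Iigp1 and Ly6a. Isg20, Oasl1 and Mx2 showed the opposite order, lower in media than in naive cells and raised in rat tail collagen, as did 9.67% of genes. Ifi27l2a alone was higher in both, against 7.34% of genes. Called only as higher in rat tail collagen were 2 members, Bst2 and Ifitm3, against 9.01% of genes. Called only as lower there were 5, Ifit2, Trim30a, Parp14, Gbp4 and Irgm1, against 10.2% of genes. Called only as higher in media than in naive cells were 3, Dhx58, Igtp and Eif2ak2, against 11.6% of genes. Called only as lower in media were 6, Isg15, Ifit1, Mx1, Usp18, Ifi35 and Sp100, against 11.2% of genes. Ifi44, lower in media than in naive cells, was not tested at day 4. Stat2 was called in neither, as were 20.5% of genes.

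Within groups, rat tail collagen 3 was the lowest library for 33 of the 44 members, against 38.8% of 20008 genes, and naive 3 was the lowest for 33, against 33.8% of genes. Media 3 was the highest of its group for 28 members, against 35.1% of genes, among them all 6 GTPase genes. The median deviation of the members from their group mean on the log2 scale was -0.138 in rat tail collagen 3, -0.153 in naive 3 and 0.0993 in media 3.

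The genes that carry the interferon signal were given from a separate list of 13. In rat tail collagen against media 7 of the 13 fell and 2 rose (53.8% and 15.4%, against 28.7% and 29.7% of all genes tested), with a median log2 change of -0.30. Both chains of the type I interferon receptor fell, Ifnar1 to 172 ± 7.66 CPM in rat tail collagen, against 263 ± 13.8 in media (log2 -0.62 ± 0.0757, adjusted p = 3.04e-05), and Ifnar2 by log2 -0.52 ± 0.116 (adjusted p = 0.00254, and log2 -0.44 with an adjusted p of 0.12 without the 3 libraries with the most ribosomal RNA). Ifngr1, the binding chain of the interferon gamma receptor, fell by -1.09 ± 0.107, and its partner Ifngr2 had a log2 change of 0.10 ± 0.179 (adjusted p = 0.664). Of the kinases, Jak1 fell by log2 -0.75 ± 0.0954 to 605 ± 29.4 CPM, against 1008 ± 57.6 in media, and Tyk2 rose by 0.25 ± 0.0608 (adjusted p = 0.00379, and log2 0.27 with an adjusted p of 0.0883 without the 3 libraries with the most ribosomal RNA).

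Irf9, the DNA-binding subunit of the interferon-activated complex, had 55.6, 56.4 and 53.5 CPM in rat tail collagen, 74.1, 80.7 and 86.3 in bovine collagen, 83.1, 91.5 and 110.3 in media and 114, 130.4 and 119.7 in naive cells. Rat tail collagen was the lowest, naive cells were the highest, and bovine collagen and media overlapped (rat tail collagen against media log2 -0.79 ± 0.103, adjusted p = 4.94e-05). Of the inhibitors, the phosphatase gene Ptpn2 fell by log2 -1.16 ± 0.0630 and the feedback inhibitor gene Socs3 rose by 1.24 ± 0.109 (adjusted p = 7.28e-08 and 2.59e-06). In bovine collagen against media none of the 13 was called with edgeR, and 3 had an unadjusted p under 0.05, against 4.18% of all genes tested. In media against naive cells 5 of the 13 rose and 5 fell (38.5% each, near the 31.6% and 29.2% of all genes tested).

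Interferon genes themselves gave few counts or none. Of 11 interferon genes listed, 7 had 0 counts in all 12 libraries together, Ifnb1 and Ifna4 among them. This allows a level of up to 0.00618 CPM over the 12 libraries pooled, and a higher one in any single group. Another 3 had 1 to 3 counts in all. Ifng, the gene of interferon gamma, was the only one tested. It had 0.658, 0.536 and 0.314 CPM in rat tail collagen, 1.34, 0.753 and 0.814 in bovine collagen, 1.32, 1.06 and 1.45 in media and 4.91, 3.57 and 3.93 in naive cells. Rat tail collagen was the lowest and naive cells were the highest. Ifng fell by log2 -1.34 ± 0.301 in rat tail collagen against media (adjusted p = 0.00247) and by -1.63 ± 0.205 in media against naive cells (adjusted p = 0.000121).

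A list of nucleic acid sensing genes held 18 symbols of the table, of which 16 were tested at day 4. Against media, 8 fell and 3 rose in rat tail collagen (50% and 18.8%, against 28.7% and 29.7% of all genes tested), with a median log2 change of -0.35. Rnaseh2b, a subunit of the enzyme that removes RNA from DNA, fell by -1.15 ± 0.0671, the adaptor gene Traf3 by -0.67 ± 0.0693 and the DNA sensor gene Cgas by -0.81 ± 0.113 on the log2 scale. Tlr9, the gene of an endosomal DNA receptor, rose by log2 1.23 ± 0.179 to 3.82 ± 0.397 CPM, against 1.61 ± 0.0899 in media. All 4 had adjusted p-values of 0.00012 or less.

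Further interferon-stimulated genes that are not among the 44 were given from a list of 71. In rat tail collagen against media 49 of the 68 tested fell and 7 rose (72.1% and 10.3%, against 28.7% and 29.7% of all genes tested), with a median log2 change of -0.67. Ms4a4b, which encodes a membrane protein of lymphocytes, fell to 211 ± 27.4 CPM in rat tail collagen, against 1196 ± 68.6 in media (log2 -2.51 ± 0.108, adjusted p = 1.29e-08). Ifit1bl1, a relative of Ifit1, fell by log2 -3.90 ± 0.174, Nmi, whose protein pairs with IFI35, by -1.30 ± 0.0697, and Phf11b by -2.02 ± 0.121. In bovine collagen against media 0 of the 68 were called with edgeR, and 17 had an unadjusted p under 0.05, against 4.18% of all genes tested. In media against naive cells 31 of 69 fell and 21 rose (44.9% and 30.4%, against 29.2% and 31.6% of all genes tested). Against naive cells, 50 of 69 fell and 8 rose in rat tail collagen (72.5% and 11.6%, against 35.4% and 36.5%).

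Windows with the motif were found among members of each direction. GAAANNGAAA stood in windows of 10 of 18 members that fell in rat tail collagen against media (55.6%, exact 95% interval 30.8 to 78.5%), in 2 of 4 that rose (6.76 to 93.2%) and in 5 of 7 that were not called (29 to 96.3%). These intervals cover one another. Of the genes whose windows are printed above, Isg15 and Ifit1 were not called, Bst2 rose, and Ifit3, Oas1a, Gbp3 and Samd9l fell.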

How the data were processed

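RNA of CD8+ T cells was sequenced in bulk, with 3 libraries in each of 4 groups. Per the labels' protocols, libraries were made with KAPA RNA HyperPrep from 150 ng of DNase-treated RNA after RiboCop depletion of ribosomal RNA. The deposited table holds raw counts per gene symbol, whole numbers that were not normalized. Per the submitters' processing notes, the tools were HISAT2, featureCounts, SAMtools, Picard, MultiQC and FastQC, with mm10 and GRCm38 as builds. The sources used here give neither the annotation release nor the strand setting, so reads of overlapping genes on opposite strands cannot be told apart.

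Groups were taken from the labels. Counts were tested with edgeR 4.0.16 in R 4.3.3 (filterByExpr, TMM factors, robust quasi-likelihood F test, Benjamini-Hochberg adjustment over all genes tested, called at an adjusted p under 0.05). The 9 day 4 libraries shared one fit of 19392 genes, and media and rat tail collagen were each fitted with naive cells in a fit of 6 libraries (18610 and 19449 genes). The biological coefficient of variation was 12.2%, 13.5% and 12%. Errors of log2 fold changes are standard errors of that fit, and errors of CPM are SD over 3 libraries. The fit was also run on simulated data with known changes in a small share of genes. Far more genes were called in the real data, so the simulation does not test scaling or calls under such conditions. Alternatives used DESeq2 1.42.0, limma-voom (limma 3.58.1), other scaling and filters, libraries left out, and the replicate number as a block. Coordinates and exon lengths came from GENCODE M21 on GRCm38, where 53291 of the 55291 symbols were found. Promoters came from RefSeq, GRCm38.p6.

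The members, the other gene lists and the tests were chosen with earlier results of these data known. Values of every library are given for members that, in either collagen against media, had an adjusted p under 0.05, an absolute log2 fold change of 1 or more, no overlap between groups and at least 5 CPM as the higher group's mean. Isg15, Ifit1, Ifit3, Mx1, Stat2, Usp18, Bst2 and Ly6a are given whatever their change, and up to 4 genes with the smallest adjusted p were named from each other list. 1 gene of these lists is in their counts but is not reported here. Counting error is the only error behind the limit given for genes with 0 counts, which is 3 counts of the total.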

Additional observations from a re-analysis of the deposited data

How the results depend on the processing

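Of 4366 member values under the alternatives, 4203 kept their call or their lack of one, 107 lost a call, 55 gained one and 1 reversed. The reversed value was that of Ly6a in rat tail collagen against media, a log2 change of 0.013 with offsets for GC content and length (known for 97.39% of the genes tested), an alternative chosen after seeing the data. Of the values that were not called, 125 changed sign, the largest with a log2 size of 0.34. In rat tail collagen against media, leaving out 1 library at a time gave a median log2 of the members from -0.77 to -0.51, with 24 to 27 members lower and 5 to 8 higher. Without the 3 libraries with the most ribosomal RNA, 6726 genes in all were called, against 11319, and the median was -0.55. In bovine collagen against media, the number of genes called, 4 of 19392, was 9 with library totals, 22 with DESeq2, 3 with limma-voom, 39 with no filter beyond 1 count, 2 in a fit of the 6 libraries alone, 1 without the 3 libraries with the most ribosomal RNA, and 2 to 5 with 1 library left out (2 without media 2). With no filter beyond 1 count 1 member, Irgm1, was lower. The members' median there was -0.26 with library totals. In rat tail against bovine collagen, 5485 genes, against 10617, and 12 members lower, against 21, were called without the 3 libraries with the most ribosomal RNA. The median was -0.33 there, -0.29 with library totals, -0.32 with a filter of 1 CPM and -0.34 with offsets for GC content and length. Library totals moved the median of all genes by log2 0.144 in that comparison, and the GC and length offsets moved it by 0.105 in rat tail collagen against media. With 1 library left out, the members' median was -0.56 to -0.35 in media against naive cells and -1.15 to -0.94 in rat tail collagen against naive cells. Allowing 1 mismatch, GAAANNGAAA stood in windows of 28 of 30 members (93.3%), against 38.9% of all genes. Apart from the construction of each alternative, the cause of these shifts was not tested.

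The replicate number as a block was an alternative, since the labels do not say that a number marks a shared mouse or day. Deviations from the group means over 20008 genes correlated at over 0.1 in 5 of 18 pairs of libraries with the same number (-0.0254 to 0.444). Between bovine collagen and media the correlation was 0.373 for number 1, 0.029 for number 2 and 0.444 for number 3. It was -0.378 between bovine collagen 1 and media 3, and -0.413 between bovine collagen 3 and media 1. Whether equal numbers share a mouse or day was not tested, and the main fits did not pair the libraries. With the replicate block 7 genes were called in bovine collagen against media, none of them a member, and 12070 in rat tail collagen against media, with 27 members lower and 7 higher. Depth limits the members with few counts: Ifi44 was under the filter at day 4, and Isg15 had 9 to 52 counts in each day 4 library.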
